A study of Schmidtea mediterranea with 24 samples.

Results

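A group of 26 genes, out of 36035 gene identifiers in the planarian flatworm Schmidtea mediterranea, was more abundant in mmp-1+ than in mmp-1- cells at every time sampled and was at a lower level in mmp-1+ cells 48 h after amputation than in intact worms. The genes were chosen on measured values. Read counts were scaled to a library total of 1000000 gene counts (CPM), and the level of a gene in a group was the log2 of its mean CPM plus 1. A gene had to reach a mean of 10 CPM in at least 1 group, which 10978 genes did. It then had to be at least 0.8 higher on that log2 scale in mmp-1+ than in mmp-1- cells at each of the 3 times, which left 179 genes. The final condition was a 48 h level at least 0.585 below the intact level in mmp-1+ cells, a factor of 1.5 on the level plus 1 CPM. The 26 genes that met it are fewer than the 150 allowed.

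The sorted populations were wildtype mmp-1+ cells and wildtype mmp-1- cells, each taken from intact worms and from tails cut 6 h or 48 h earlier, with 3 libraries in each of the 6 groups. Each library came from 1000 cells that flow cytometry had sorted after in situ hybridization with an mmp-1 probe, and each biological replicate pooled 100 worms that had gone 11 days without food. Worms had been dissociated and fixed with ACME, a mixture that fixes cells while it separates them. A second assay, Slide-seqV2, gave 2 adjacent tissue sections from 1 frozen block for each of 48 h and 6 h. Per the labels each block held tail fragments and 1 intact animal, and the labels do not say which piece of tissue is which.

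Planarians rebuild missing body parts from neoblasts, the dividing stem cells that lie among the other cells of the body. Matrix metalloproteinases such as the product of mmp-1 are mostly secreted zinc enzymes that cut proteins of the extracellular matrix, and they are best known for remodelling tissue during growth and repair. Amputation sets off an early response to the wound itself within hours and a later response, tied to missing tissue, over the following days.

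The files pair no gene name with the identifiers, so no role is given for any of the 26 genes, and the level of mmp-1 itself and of the markers of other cell types was not analysed here. SMED30019930 had the highest counts among the genes enriched in mmp-1+ cells. It was at 15625 to 34173 CPM in mmp-1+ libraries and 13.9 to 1631 CPM in mmp-1- libraries. Since it was picked for that enrichment, these ranges are no independent measure of the quality of the sort. Gene counts per library were 52969393 to 66114382. CPM is not adjusted for gene length, so levels are compared between libraries for the same gene and not between genes. In bulk libraries, fewer cells of a type and less RNA per cell cannot be told apart. Intact samples are whole worms and the later ones are tails, so body region and injury cannot be told apart either. 1 library stood apart among the 3 intact mmp-1+ libraries: replicate 2 was the lowest of them for 26 of the 26 genes, with a median of 0.551 times (0.434 to 0.719) the mean of replicates 1 and 3. It was also low for SMED30019930, at 15625 CPM against 29844 and 30669 CPM, while over all genes at 10 CPM or more its median ratio to the other 2 libraries was 1.16. Results that rest on it are given with and without it.

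The 26 genes differed from intact by a median of -0.72 on the log2(CPM + 1) scale at 48 h in mmp-1+ cells, with a range of -1.72 to -0.59 set at its upper end by the rule. The median over the 153 other enriched genes was -0.14 and over all genes at 10 CPM or more it was 0.01. Without intact replicate 2 the median of the 26 was -0.95 (-1.96 to -0.74). These differences chose the genes and are not tested. In mmp-1+ cells their summed level was 1734 ± 510 CPM for intact worms, 2028 ± 49.1 CPM for 6 h and 941 ± 138 CPM for 48 h. In mmp-1- cells it was 435 ± 41.7, 399 ± 52.0 and 255 ± 17.9 CPM (SD of 3 libraries throughout).

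SMED30033630 had the largest difference, -1.72. It had 248, 142 and 269 CPM in the 3 intact mmp-1+ libraries, 270.5, 318 and 286 CPM at 6 h, and 58.8, 76.5 and 62.4 CPM at 48 h. All 48 h libraries lay far below every earlier mmp-1+ library, at 0.30 times the intact mean, and all 6 h libraries lay above the intact ones. In mmp-1- cells the same gene had 40.9, 52.4 and 38.8 CPM, then 45.8, 68.1 and 62.9 CPM, then 27.1, 28.0 and 26.1 CPM. The mmp-1+ libraries at 48 h were therefore still above every mmp-1- library at that time, though by a mean factor of 2.43 against 4.99 in intact worms.

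SMED30013716 followed, at -1.60. It had 22.2, 10.7 and 20.9 CPM in intact, 18.7, 17.9 and 15.9 CPM in 6 h and 4.48, 5.70 and 5.62 CPM in 48 h mmp-1+ libraries. No mmp-1- library held more than 1.35 CPM of it. SMED30011757 differed by -1.55, with 17.8, 9.21 and 16.3 CPM in intact, 15.4, 16.8 and 15.0 CPM in 6 h, and 3.71, 4.38 and 4.67 CPM in 48 h mmp-1+ libraries. For both genes the 48 h libraries did not overlap the earlier ones, and the 6 h libraries lay within the intact range. In SMED30013716 the low end of that range was intact replicate 2, and every 6 h library lay below replicates 1 and 3.

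SMED30019663 (-1.20), SMED30017185 (-1.17) and SMED30012020 (-1.05) complete the 6 genes with a 48 h level at or below -1 against intact. SMED30019663 had 115, 57.4 and 122 CPM in intact, 117, 109 and 116 CPM in 6 h and 40.3, 48.7 and 37.7 CPM in 48 h mmp-1+ cells. SMED30017185 had 26.7, 12.8 and 25.5 CPM, then 24.6, 27.4 and 23.8 CPM, then 7.35, 10.9 and 9.06 CPM at the same times. In both genes the highest 48 h library was close below intact replicate 2 and clearly below the other intact libraries. SMED30012020 showed the narrowest gap of the 6, with 46.0, 68.5 and 51.3 CPM at 48 h against a lowest intact library of 68.8 CPM.

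**Figure D1:**
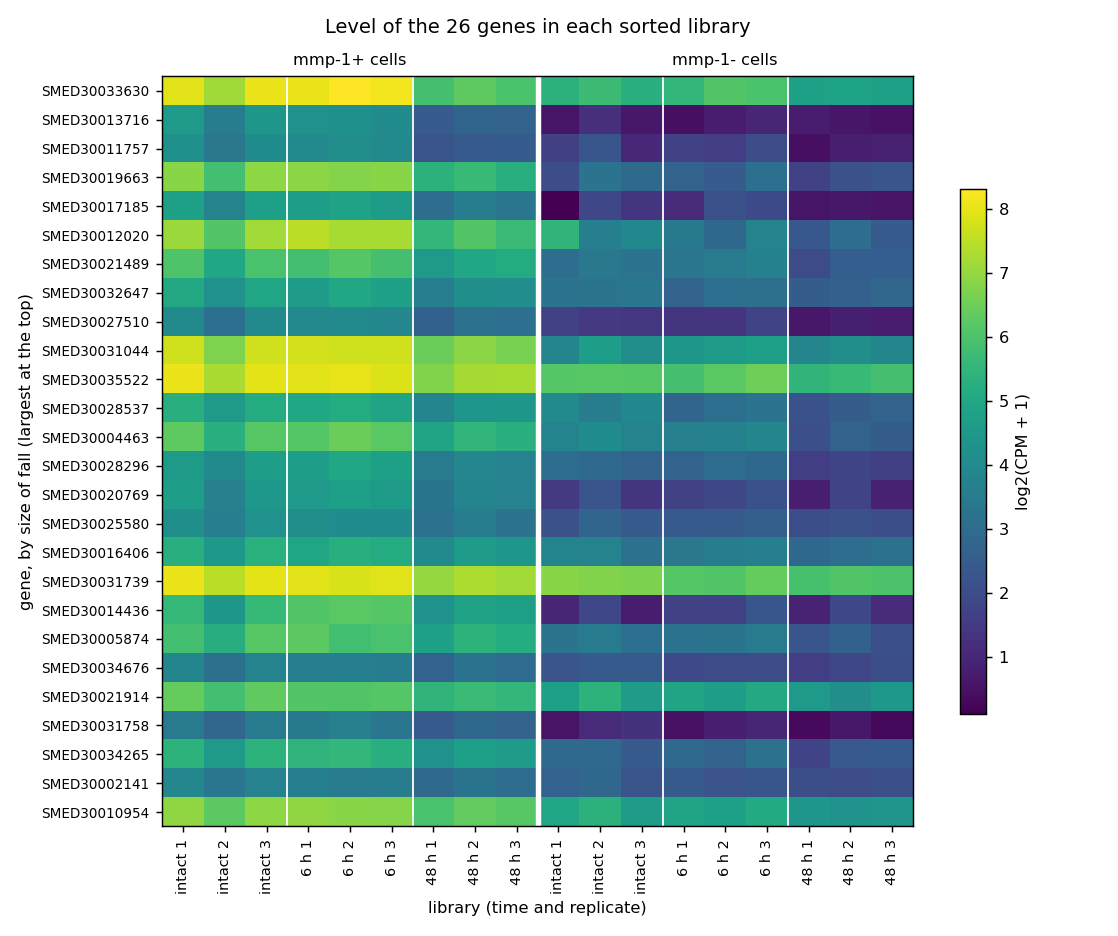
Level of each of the 26 genes, as log2(CPM + 1), in the 18 sorted libraries. Rows run by the size of the 48 h difference in mmp-1+ cells, and columns give mmp-1+ cells left of mmp-1- cells, each in the order intact, 6 h and 48 h with 3 replicates. The 48 h mmp-1+ columns and intact mmp-1+ replicate 2 are darker than the other mmp-1+ columns in every row.

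The other 20 genes differed by -0.82 to -0.59. Among those with the highest counts, SMED30035522 had 269, 154 and 251 CPM in intact, 246, 261 and 236 CPM in 6 h, and 107, 146 and 149 CPM in 48 h mmp-1+ libraries. SMED30031739 had 268, 174 and 252 CPM, then 248, 226 and 242 CPM, then 129.7, 158 and 143 CPM. SMED30031044 had 210.4, 105 and 211 CPM, then 214, 208 and 209 CPM, then 88.0, 118 and 101 CPM. The first 2 of these had every 48 h library below every intact one, whereas for SMED30031044 intact replicate 2 lay inside the 48 h range. At the limit of the rule, SMED30034265, SMED30002141 and SMED30010954 were just inside, at -0.59 each, and SMED30012987, SMED30034767 and SMED30021987 were just outside, at -0.57, -0.57 and -0.56.

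Whether the 48 h and intact mmp-1+ libraries overlapped depended on that intact library. All 3 of the 48 h libraries lay below all 3 intact ones in 14 of the 26 genes, where 19.8% of all genes at 10 CPM or more did so, and in 26 of 26 once intact replicate 2 was left out, where 22.4% of all genes did. Since the rule used this difference, neither count is evidence for it. The same library was also low for the genes of the stable comparison list, the 88 enriched genes whose 48 h level was within 0.3 of intact: its median ratio to the other 2 libraries was 0.595 there and 0.551 for the 26 genes.

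Expressed as a share of the summed stable genes of the same library, the 26 genes made up 1.46%, 1.58% and 1.37% in the intact, 1.23%, 1.48% and 1.33% in the 6 h and 0.776%, 0.759% and 0.872% in the 48 h mmp-1+ libraries. On this measure intact replicate 2 was the highest intact library and no longer the lowest, and in the sum the 48 h libraries were below every earlier one. Taken singly, the 48 h libraries were below every intact library in 26 of the 26 genes and below every 6 h library in 22. The share over all genes was not computed on this measure, so nothing is read from these counts. Both lists were chosen by their 48 h difference, so the size of the gap between the 48 h and earlier shares is a description. The 3 intact shares lay between 1.37% and 1.58%, while the summed levels behind them differed by up to a factor of 1.78.

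**Figure D2:**
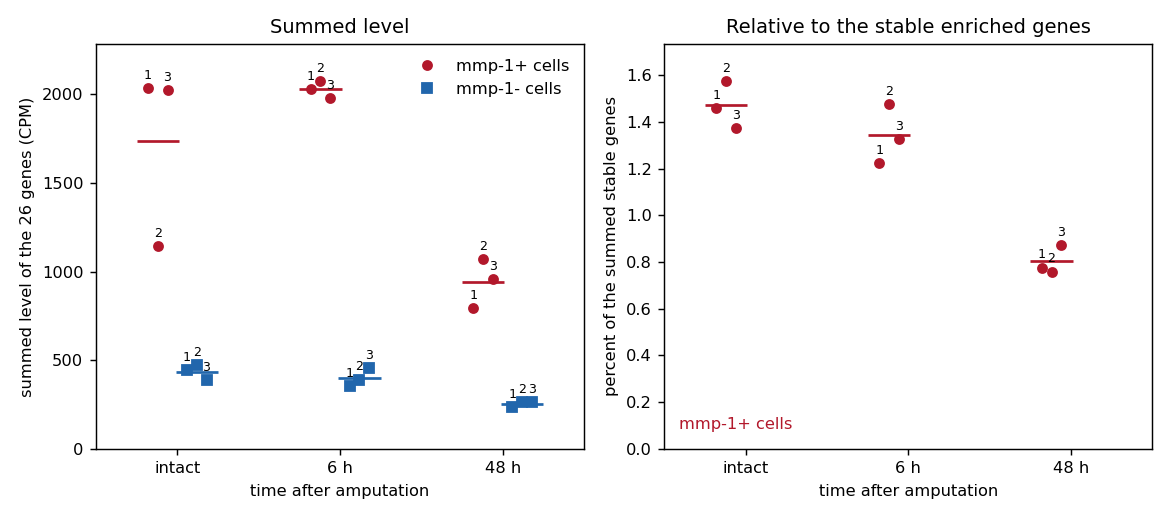
Left, summed CPM of the 26 genes in each sorted library, with mmp-1+ cells (red circles) left of mmp-1- cells (blue squares) at each time. Right, the same sum in mmp-1+ libraries as a percent of the summed stable enriched genes. Numbers are replicates and bars are means of 3. Intact mmp-1+ replicate 2, at 1145 CPM, stands apart on the left and sits with its group on the right, and the 48 h points are lowest in both.

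At 6 h the 26 genes had not yet reached their 48 h level in mmp-1+ cells. Their median difference of 6 h from intact in mmp-1+ cells was 0.18, with 22 genes above 0 and 4 below, and the 153 other enriched genes had a median of 0.13. All genes at 10 CPM or more had a median of -0.10. Scaling by TMM, which sets library sizes so that most genes do not change, moved the median of all genes by 0.11, to 0.01, and that of the 26 to 0.26. Without intact replicate 2 the median of the 26 was -0.05, with 7 genes above 0 and 19 below. The sign of the 6 h difference thus rested on 1 library. No gene was past the limit of the rule at 6 h either way, the lowest being at -0.10 with that library and at -0.28 without it.

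SMED30014436 was the gene furthest above its intact level at 6 h, by 0.84, or 0.55 without intact replicate 2. It had 47.2, 20.7 and 48.1 CPM in intact, 67.1, 72.7 and 70.2 CPM in 6 h and 18.6, 27.6 and 26.1 CPM in 48 h mmp-1+ libraries. Its 6 h libraries lay above all others, and its 48 h libraries overlapped the intact ones only through intact replicate 2. SMED30033630, SMED30012020 and SMED30028296 also had every 6 h library above every intact one, so that 4 of 26 genes did, beside 4.85% of all genes at 10 CPM or more. None of the 26 had every 6 h library below every intact one, beside 23.2% of all genes. That count rests on intact replicate 2, which was the lowest intact library for 26 of the 26 genes. Without it every 6 h library lay below intact replicates 1 and 3 in SMED30002141, SMED30013716, SMED30016406, SMED30021914, SMED30025580, SMED30028537, SMED30031739 and SMED30034676. The share of all genes that did so was not computed. SMED30028296 had 22.9, 14.9 and 24.4 CPM in intact, 25.1, 30.8 and 26.1 CPM in 6 h and 9.97, 14.1 and 12.6 CPM in 48 h mmp-1+ libraries.

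At the other end, SMED30002141 had the largest part of its 48 h difference in place at 6 h, 17.0% of it, followed by SMED30021914 at 11.1%, SMED30034676 at 2.67% and SMED30013716 at 2.02%. SMED30002141 had 14.1, 9.04 and 12.3 CPM in intact, 11.6, 10.5 and 10.8 CPM in 6 h and 6.76, 8.64 and 7.17 CPM in 48 h mmp-1+ libraries. Its 6 h libraries lay above the 48 h ones and inside the intact range, though below intact replicates 1 and 3. These parts depend on intact replicate 2, without which SMED30002141 was at -0.25 at 6 h and -0.74 at 48 h.

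Every one of the 26 genes was lower at 48 h than at 6 h in mmp-1+ cells. All 3 of the 48 h libraries lay below all 3 of the 6 h libraries in 26 of 26 genes, where 11.1% of all genes at 10 CPM or more did so. The median difference was -0.93 (-2.13 to -0.49), against -0.28 in the other enriched genes and 0.11 in all genes at 10 CPM or more. TMM moved the median of all genes by -0.13, to -0.02, and that of the 26 genes to -1.06. The 48 h libraries also entered the rule, so this comparison shares values with the choice and is not tested. The 6 h libraries entered the rule through the sort difference and the minimum of 10 CPM. SMED30031758 reached that minimum only in 6 h mmp-1+ cells, at 10.2 CPM against 9.00 CPM in intact ones. The 6 h mmp-1+ libraries were close to one another: the summed levels were 2029, 2076 and 1978 CPM.

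Choosing genes by the same rule in 2 replicates and reading the third gives values that the choice did not use. With replicates 2 and 3, 6 genes were chosen, and in replicate 1 their median 48 h difference from intact was -1.86, with 6 of 6 past the limit of the rule. With replicates 1 and 2, 16 genes were chosen, and in replicate 3 the median was -0.91, with 16 of 16 past the limit of the rule. With replicates 1 and 3, 81 genes were chosen, and in replicate 2 the median was 0.31, with 21 of 81 below 0 and 5 past the limit of the rule. Replicate 2 holds the low intact library, and all enriched genes had a median of 0.55 in it, against -0.66 in replicate 1 and -0.41 in replicate 3. The median of -0.66 is itself past the limit of the rule. The shares of enriched genes and of all genes past the limit were not computed, so nothing is read from these counts. Against the 6 h library of the same number, the genes read in replicate 2 had a median of -0.38. These values set the 48 h library against the intact library of the same number, although the numbers were not taken as pairs between times. They therefore depend on which libraries share a number. Among the 48 h mmp-1+ libraries, replicate 1 was the lowest for 25 of the 26 genes and replicate 2 the highest for 22. The values are given as a description.

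In mmp-1- cells most of the 26 genes were also lower at 48 h than in intact worms. edgeR called 17 of the 26 lower and 0 higher at an adjusted p under 0.05, where 9.85% of 31435 genes tested were called lower and 7.74% higher. At an unadjusted p under 0.05 edgeR had 23 lower and 0 higher, DESeq2 called 18 lower and 0 higher and limma with voom called 12 and 0. Shares over all genes were computed for adjusted edgeR calls only, so these other counts cannot be judged against one. The edgeR count was 10 with intact mmp-1- replicate 2 left out. The rule favours such genes: a gene that was lower at 48 h in mmp-1+ cells kept a sort difference of 0.8 more easily if it was also lower in mmp-1- cells, and 10 genes met every other condition but not that one. For 9 of the 26 genes the 48 h difference between the populations would have been under 0.8 had mmp-1- cells stayed at their intact level, and 9 of those 9 were called lower. For the other 17, whose choice did not depend on a lower mmp-1- level, 8 were called lower.

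Among those 17, SMED30012020 had the largest change. It had 4.09, 7.29 and 4.54 CPM in 48 h against 43.5, 11.6 and 14.4 CPM in intact mmp-1- libraries (log2 fold change -2.15, SE 0.41, edgeR adjusted p 9.43e-04). The groups did not overlap, and intact replicate 1 stood far above the other 2, without which the fold change was -1.35. SMED30004463 had 3.35, 5.57 and 4.75 CPM at 48 h against 12.9, 16.2 and 12.8 CPM in intact mmp-1- cells (-1.66, SE 0.25, adjusted p 7.47e-05), and SMED30028296 had 2.11, 2.58 and 2.19 CPM against 7.46, 6.50 and 5.57 CPM (-1.55, SE 0.20, adjusted p 1.84e-05). In these 2 genes the libraries of each group lay close together and far from those of the other. SMED30005874 was lower by a log2 fold change of -1.12 (SE 0.26, adjusted p 0.00486). Of the 9 genes whose choice leaned on mmp-1- cells, SMED30028537 had 3.48, 4.76 and 5.63 CPM at 48 h against 15.3, 11.1 and 14.3 CPM in intact (-1.59, SE 0.22). Its lower 48 h level in mmp-1- cells helped to choose it, so no p is given for it here.

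Of the 9 genes not called, SMED30014436, SMED30013716 and SMED30031044 were closest to their intact level on the log2(CPM + 1) scale. SMED30014436 had 0.919, 2.7 and 1.19 CPM at 48 h against 0.976, 2.66 and 0.682 CPM in intact mmp-1- cells (0.11, SE 0.48, edgeR adjusted p 0.921). SMED30013716 had 0.703, 0.533 and 0.414 CPM against 0.472, 1.35 and 0.549 CPM (-0.57, SE 0.45, adjusted p 0.451). SMED30031044 had 13.3, 17.1 and 13.5 CPM against 13.5, 24.4 and 17.1 CPM (-0.38, SE 0.25, adjusted p 0.355). All 3 had overlapping groups, and in all 3 the highest intact library was replicate 2 of the mmp-1- group. That library also held 1198 CPM of SMED30019930, against 26.7 and 13.9 CPM in the other intact mmp-1- libraries, and its median ratio to them was 1.25 for the 26 genes and 1.40 for the stable genes. It carries the same replicate number as the low intact mmp-1+ library, and whether both came from the same pool of worms was not tested. The part of this mmp-1- library in the calls was not tested beyond leaving it out.

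**Figure D3:**
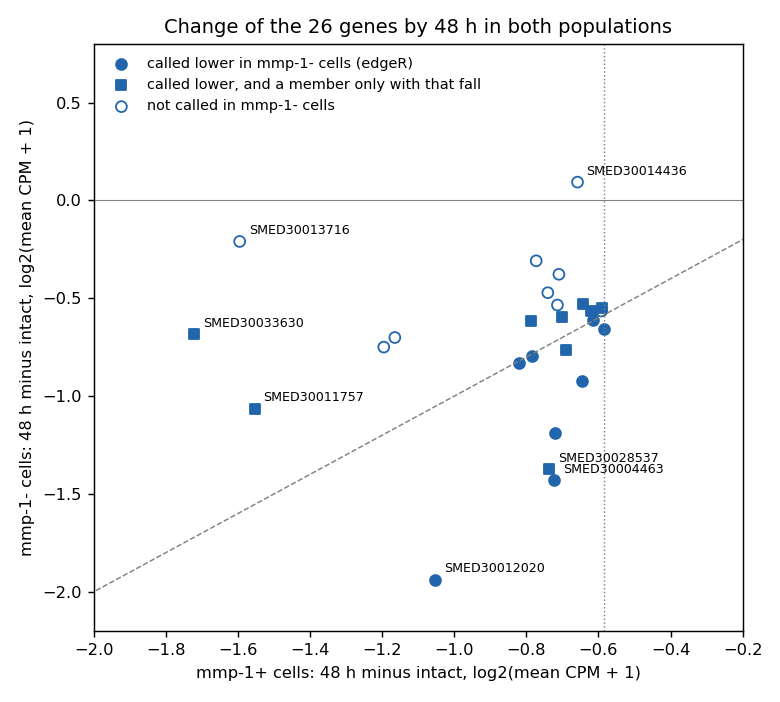
Difference of 48 h from intact, in log2(mean CPM + 1), for each of the 26 genes in mmp-1+ cells (horizontal) and mmp-1- cells (vertical). Filled symbols were called lower in mmp-1- cells by edgeR, squares mark the 9 genes that would have missed the 48 h sort limit without that change, the dashed line is equal change and the dotted line is the limit of the rule. SMED30033630, at -1.72 and -0.68, and SMED30013716, at -1.60 and -0.21, lie furthest above the dashed line, and SMED30012020, at -1.05 and -1.94, furthest below it.

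In mmp-1- cells fewer of the 26 genes were called at 6 h than at 48 h. At 6 h against intact edgeR called 2 of the 26 lower and 0 higher, where 4.99% and 4.56% of all tested genes were called, with 4 lower and 2 higher at an unadjusted p under 0.05, and DESeq2 and limma with voom each called 2 lower and 0 higher. The 2 genes were SMED30028537 (-0.85, SE 0.22, adjusted p 0.0142) and SMED30031739 (-0.53, SE 0.16, adjusted p 0.0363). The count was 0 with replicate 1 of either time left out and 1 with 6 h replicate 2 left out. At 48 h against 6 h edgeR called 12 lower and 0 higher, where 5.18% and 4.58% of all tested genes were called, with 21 and 0 at an unadjusted p under 0.05. The rule favours genes that are low in 48 h mmp-1- cells, so this count shares values with the choice. How many genes would have been chosen with mmp-1- cells at their 6 h level was not worked out. Unadjusted counts and those of other tools again have no share over all genes beside them. DESeq2 called 12 lower and limma with voom 6, both with 0 higher, and edgeR called 7 with 48 h replicate 1 or 6 h replicate 3 left out. SMED30028296 had the smallest p (-1.52, SE 0.20, adjusted p 4.96e-05). Of the 88 stable genes 14 were called lower and 1 higher in this comparison, and 18 lower and 0 higher at 48 h against intact.

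Over all genes at 10 CPM or more, the 48 h libraries lay below the intact ones without overlap in 17.1% in mmp-1- cells, and they did so in 19 of the 26 genes. The rule favours low 48 h mmp-1- levels here too, so this count is a description. The median mmp-1- difference of the 26 was -0.64 on the log2(CPM + 1) scale, against -0.28 in the other enriched genes and 0.05 in all genes. In 25 of the 26 the difference was below 0, the exception being SMED30014436 at 0.09, and in 16 it passed the limit set for mmp-1+ cells.

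With all libraries kept, the sort difference changed little in the middle of the group and by much at its ends. Its median over the 26 genes was 2.21 for intact worms, 2.37 for 6 h and 2.01 for 48 h on the log2(CPM + 1) scale. The difference was smaller at 48 h than in intact worms in 17 genes and larger in 9. Intact mmp-1+ replicate 2 was the lowest intact library for all 26, so leaving it out raises every intact difference. SMED30021489, SMED30027510, SMED30031739 and SMED30010954 then moved from larger to smaller, and no gene moved the other way. Without it their mmp-1+ changes from intact to 48 h were -1.08, -1.03, -0.86 and -0.78. Their mmp-1- changes were -0.83, -0.80, -0.77 and -0.66. The median was not computed without that library. The largest mean sort differences were in SMED30014436 (3.83), SMED30019663 (3.74), SMED30012020 (3.12) and SMED30031044 (3.01). For SMED30013716 the ratio of means between mmp-1+ and mmp-1- cells was 9.57 at 48 h and 22.6 in intact worms. For SMED30004463 it was 8.22 at 48 h and 4.47 in intact worms, and for SMED30012020 10.4 and 5.0. The last value leans on intact mmp-1- replicate 1, which had 43.5 CPM of SMED30012020 against 11.6 and 14.4 CPM. That ratio was not computed without it, and no intact ratio given here was computed without intact mmp-1+ replicate 2.

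In the tissue sections 14 of the 26 genes had at least 200 UMIs (unique molecular identifiers, which count captured molecules) in all 4 sections together, and 12 had fewer, including SMED30016406 with 3 and SMED30031758 with 7. SMED30031739 alone gave 43.2% of the 17990 UMIs. Tissue covered 13798 and 12696 beads with medians of 954 and 812 UMIs at 48 h, and 9441 and 14339 beads with medians of 677 and 552 UMIs at 6 h. Each time is 1 block, so no test was made, and intervals cover counting error only.

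The 14 genes had a median log2 ratio of 48 h over 6 h of -0.18, against 0.28 over 10883 genes and 0.03 over 69 stable genes with 200 UMIs. Of the 14, 12 were below 0, and the share of all genes below 0 was not computed. Between single sections of the 2 times the median of the 14 was -0.55 to 0.02. Both 48 h sections lay below both 6 h sections for 4 of the 14, where 13.9% of all genes did, and above them for 1, where 52.3% did. They also lay below for 15 of the 69 stable genes (21.7%) and 22 of 119 other enriched genes (18.5%). They lay above for 27.5% and 36.1% of these lists. SMED30004463 had 6.10 (5.06 to 7.29) and 6.89 (5.72 to 8.24) CPM at 48 h, against 15.7 (13.3 to 18.5) and 16.9 (14.7 to 19.4) at 6 h (95% Poisson intervals). SMED30031044 had 18.9 (17.0 to 20.9) and 22 (19.9 to 24.4) at 48 h against 42.7 (38.6 to 47.0) and 46.6 (42.8 to 50.6) at 6 h. In both genes the intervals of a block's sections overlap and those of different blocks lie far apart. SMED30034265 had 7.22 and 7.69 against 12.1 and 12.0, and SMED30012020 had 9.15 and 8.83 against 10.4 and 13.4 CPM. The intervals of the 2 blocks do not overlap for SMED30034265, and they do for SMED30012020, at 7.86 to 10.6 in section 1 of 48 h and 8.49 to 12.7 in section 1 of 6 h. SMED30002141 went the other way, with 5.08 and 4.61 at 48 h against 3.96 and 3.32 at 6 h, and its intervals overlap.

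SMED30033630, with the largest difference in the sorted cells, did not separate the blocks: it had 2.79 and 4.27 CPM at 48 h and 3.23 and 5.39 at 6 h. The sum of all 26 genes was 256 and 308 CPM at 48 h and 332 and 363 at 6 h. As a share of the stable genes in the same section it was 1.72% and 1.65% at 48 h against 1.76% and 1.12% at 6 h, so the gap seen in sorted mmp-1+ cells was not present on this measure. A section holds all cells of the tissue and also an intact animal, and the sorted libraries do not.

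**Figure D4:**
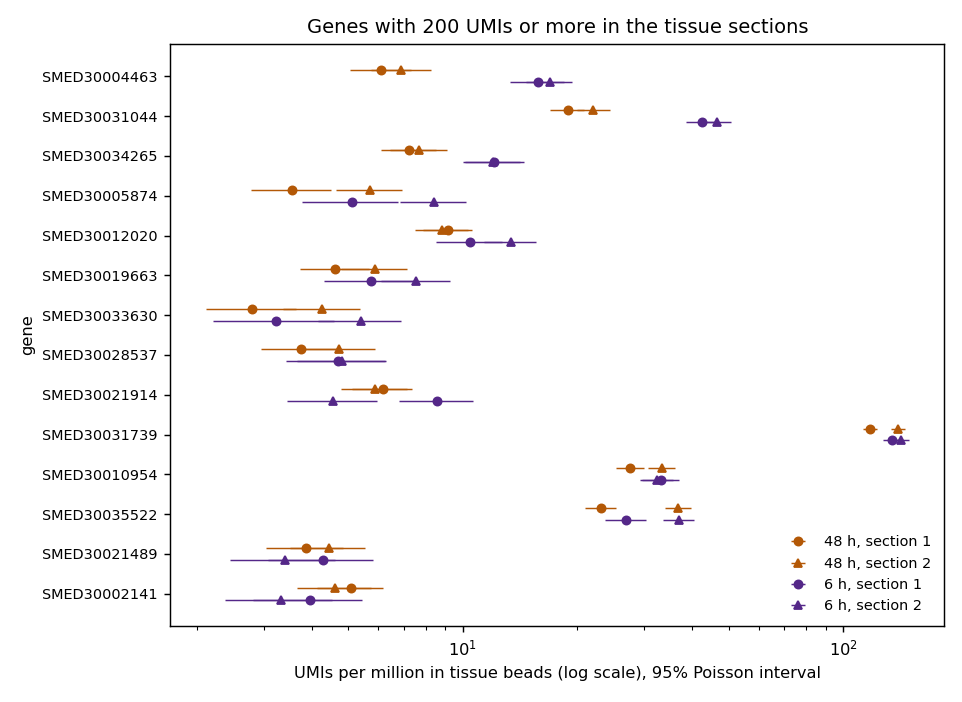
CPM in tissue beads, on a log scale, for the 14 genes with 200 UMIs or more, with 95% Poisson intervals. For each gene the 48 h sections (orange) are drawn above the 6 h sections (purple), circles for section 1 and triangles for section 2. SMED30004463 and SMED30031044 separate most, and SMED30002141 is the single gene with both 48 h sections above both 6 h sections.

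No shared rim or interior position stood out. Beads in the outer 25% of the tissue by distance from its edge were compared with the inner 50%, with medians of 260 to 516 UMIs per bead in the rim and 697 to 1227 inside. The median log2 ratio of rim over interior was 0.19 for the 14 genes and 0.05 for all genes, and per section it was 0.06 and -0.32 at 48 h and 0.22 and 0.27 at 6 h. It was above 0 in all 4 sections for 3 genes, SMED30033630 (0.64), SMED30028537 (0.45) and SMED30035522 (0.28), where 24.8% of all genes were. It was below 0 in all 4 for SMED30005874 (-0.73), SMED30031044 (-0.49), SMED30012020 (-0.46) and SMED30010954 (-0.17), where 15.0% of all genes were. These ratios compare shares of the UMIs in each zone, not molecules per bead, and the count above 0 is near the share over all genes. With counts averaged over 20 neighbouring beads, each gene correlated with the summed other members at a median r of 0.25, led by SMED30012020 (0.34), SMED30004463 (0.33) and SMED30035522 (0.31). With the same averaging the median r to that sum was 0.27 for the other enriched genes, 0.28 for the stable genes and 0.03 for all genes. Neighbouring beads share counts under this averaging. On single beads the median r was 0.017 for the 14 genes and 0.0004 for all genes. The correlation was thus above that of all genes but not particular to the 14 genes among the enriched ones.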

How the data were processed

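The authors deposited raw read counts per gene for the sorted cells and raw UMI counts per gene and bead for the sections, neither normalized. STAR 2.7.3a and RSEM are named for the sorted cells and bcl2fastq 2.20 for the sections, per the submitters' processing notes; the sources used here do not give the reference or the counting settings. Reads listed as multimapping (5.67% to 9.21%) or unmapped (12.1% to 16.1%) were left out of library sizes, so levels of near-identical genes are uncertain. The libraries carry no strand information and no UMIs, so reads are not independent molecules. The 2 single-cell samples were not analysed here.

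The 26 genes and the lists beside them were chosen with earlier results of these data known. Differences between mmp-1- groups were tested with edgeR 4.0.16 (R 4.3.3, filterByExpr, TMM, quasi-likelihood fit of the 6 groups, Benjamini-Hochberg adjustment over 31435 genes, called under 0.05). The SE is the log2 fold change divided by the square root of the F statistic. The procedure was tested on simulated data. DESeq2 1.42.0, limma 3.58.1, other scalings, a replicate block and leaving out each library were alternatives. No library appeared to be deposited more than once: within groups, chi-square per gene was 12.4 to 114. Same-numbered mmp-1- libraries of different times did not deviate together (r -0.19 to 0.10), so the numbers were not taken as pairs between times. Between same-numbered mmp-1+ and mmp-1- libraries r was 0.0459 to 0.281 at 6 h, 0.0455 to 0.105 at 48 h and -0.003 to 0.0588 in intact worms. Whether such libraries came from the same worms was not tested, and no test here compares the populations.

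Tissue beads had at least 50 UMIs and lay in a dense neighbourhood of 20 beads (Otsu's limit per section). The 4 sections shared 3 to 5 bead barcodes per pair. Section ratios are log2 of CPM plus 1. Genes were named by rule: the extremes of the 48 h and 6 h differences, of level, sort difference, mmp-1- change, section ratio, rim ratio and likeness, and those at the limit of the rule, 19 of the 26 in all. SMED30019930, SMED30016406, SMED30021489, SMED30025580, SMED30027510 and SMED30031758 were named after their values were seen.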

Additional observations from a re-analysis of the deposited data

How the results depend on the processing

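The choice of genes moved with the settings: 44 genes met the rule with TMM library sizes, 14 with log2(CPM + 5), and 15 to 53 when 1 library was left out. It was 15 without 48 h mmp-1+ replicate 1 and 15, 53 and 17 without intact mmp-1+ replicate 1, 2 and 3. The 53 include all 26, and of these 53 edgeR called 29 at 48 h against intact, 3 at 6 h and 27 at 48 h against 6 h in mmp-1- cells, all lower except 1 of the 27. Leaving out 1 library, the count of the 26 called in mmp-1- cells was 10 to 19, 0 to 3 and 7 to 10 in those 3 comparisons, all lower except 1 called higher at 6 h without intact mmp-1- replicate 2. Fitting the replicate block gave 16, 2 and 10, and limma with voom called 6 in the last; no other tool, scaling or filter moved a call count by over 1.5 times. Of the 17 genes called lower at 48 h against intact, 8 kept their call in all 13 alternatives and 9 lost it in at least 1. In mmp-1- cells the sign at 48 h turned for SMED30013716 (-0.87 to 0.088 when 1 library was left out, above 0 without intact replicate 2) and for SMED30014436 (-0.50 to 0.94, below 0 at -0.50 without 48 h replicate 2 and at -0.13 and -0.23 without intact replicates 1 and 3). The count of genes with 48 h below intact mmp-1+ libraries was 26 without intact replicate 2, an alternative added after the data were seen, and the median likeness over beads was 0.0166 with no averaging. In the sections, low counts limit 12 of the 26 genes.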

Other observations

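Pieces of tissue within a section differed more than the sections did. The 26 genes together had 167 to 663 and 177 to 634 CPM over the 13 and 12 pieces of the 48 h sections, and 232 to 507 and 229 to 748 over the 9 and 10 pieces of the 6 h sections. The summed stable genes varied further, at 2133 to 28833 and 1906 to 32509 CPM at 48 h and 2559 to 39942 and 2640 to 109200 at 6 h. The labels do not say which piece is the intact animal.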
